A study of Mus musculus with 24 samples.

Results

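The genes of oxidative phosphorylation were described through acetylation of histone H3 at lysine 27 (H3K27ac), which marks promoters and enhancers in use, in mouse liver. Members were all regions of the deposited table whose annotated gene symbol begins with Nduf, Uqcr, Cox4 to Cox8 or Atp5. The rule took 161 of 63686 regions and 70 of 16313 genes, and it used no measured value. Of these regions 63 lay over the transcription start site of their gene, 1 for each of 63 genes, and 98 did not. The remaining 7 genes (Cox4i1, Cox4i2, Ndufa13, Ndufb3, Ndufb9, Ndufs6 and Atp5s) had no region over their own start. A region that covers the starts of neighbouring genes is assigned to only 1 of them in the table. A region counted as lying over a start site, and is called a start-site region here, when the distance of its centre from the annotated start was no larger than the distance of the centre from the edge of the region.

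The mice were male C57BL/6J, 9 weeks old, and all carried the floxed allele as Gata4 fl/fl, so the controls did too. Gata4 encodes a zinc-finger transcription factor of the liver. Knockout mice (Gata4LKO) had received AAV8-Tbg-Cre, an adeno-associated virus in which the Tbg promoter drives Cre recombinase in hepatocytes, and control mice an Empty AAV8; all were injected when 8 weeks old and killed 7 days later. The other cells of the liver keep Gata4 in this model, and whole frozen liver was used. The mice formed 4 groups of 3, with 1 library per mouse: refed knockout, refed control, fasted knockout and fasted control. Refed mice were fasted for 12 h over the day and then fed a diet with 69% sucrose and 10% fat for 12 h overnight. Fasted mice had a 12 h fast overnight, and all were killed at the same time in the morning, so that the clock time of the fast differed with feeding state.

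Values are normalized reads per region, read counts scaled by the authors so that the totals of the libraries are equal. The libraries held 22.2 to 30.4 M reads in regions, with 22.9 ± 0.674 M in refed knockout, 28.8 ± 1.52 M in refed control, 24.2 ± 1.10 M in fasted knockout and 25.9 ± 3.22 M in fasted control liver (mean ± SD, n = 3 each). All 7 hepatocyte markers had regions, with mean values of 17336 at Apoa1 and 5788 at Hnf4a, or 310 and 294 per kb of region. Regions assigned to markers of other liver cells had signal too. The endothelial gene Egfl7 averaged 7035 (186 per kb), the macrophage genes Csf1r and Cx3cr1 384 and 371, and the lymphocyte marker Ptprc 333. The weakest of their lists were the macrophage genes Adgre1 and Cd5l at 19.7 and 15.0 and the T cell gene Cd3e at 17.4. The macrophage markers had 0 regions over a start site and the lymphocyte markers 1. The macrophage values are thus assigned to these genes by distance only. A histone mark does not measure the deletion itself. The region over the start of Gata4 (mm9 chr14:63845909-63872243) held 5124 to 5756 in refed knockout, against 4745 to 5161 in refed control liver, and 3879 to 4177 in fasted knockout, against 3464 to 3784 in fasted control liver. In whole tissue, fewer cells of a type and less acetylation per cell cannot be told apart.

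Oxidative phosphorylation takes place in the inner mitochondrial membrane. Complex I (Nduf genes) oxidises NADH, complex III (Uqcr genes) passes electrons to cytochrome c, complex IV (Cox genes) passes them to oxygen, and the proton gradient built on the way drives complex V, the ATP synthase (Atp5 genes). In the liver the pathway supplies the ATP for gluconeogenesis in fasting and oxidises the NADH of fatty acid and sugar breakdown, and the nuclear factors NRF1, GABP, YY1 and the ERR receptors are known regulators of its nuclear genes.

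Promoter sequences were read for the members from 250 bases before to 50 bases after the start, from RefSeq on the build GRCm38.p6, which is not the build of the regions (mm9). Of the 70 genes, 60 matched by Entrez gene identifier, 56 of them with a start-site region. Promoters of 7 genes are shown because the results turn on their genes or because they hold the motifs searched, which are in capitals. Ndufaf4 (chr4:24897833-24898132, plus strand), Ndufa8 (chr2:36049289-36049588, minus strand) and Ndufa6 (chr15:82354242-82354541, minus strand) hold the NRF1 letters and belong to start-site regions that were higher after refeeding. Atp5g3 (chr2:73911277-73911576, minus strand) and Cox7a1 (chr7:30183921-30184220, plus strand) hold the GATA letters and have a GATA4 ChIP peak near their start. Atp5j (chr16:84834927-84835226, minus strand) and Ndufs3 (chr2:90904672-90904971, minus strand) hold YY1 or ETS letters and had levels per kb among the higher members and were not called after refeeding. These promoters are examples, and other members went other ways. Atp5e, Cox6a1, Ndufb6 and Uqcr11 with ETS letters and Ndufa9 and Ndufc1 with YY1 letters were called higher in at least 1 genotype. Atp5k and Atp5l with NRF1 letters were not. Atp5g1, Cox7c, Ndufa12 and Ndufc2 hold GATA letters without a peak at their start-site region, and Ndufa6 and Ndufa9 have a peak without the letters. Each sequence reads 5′ to 3′ on the strand of its gene.
Ndufaf4: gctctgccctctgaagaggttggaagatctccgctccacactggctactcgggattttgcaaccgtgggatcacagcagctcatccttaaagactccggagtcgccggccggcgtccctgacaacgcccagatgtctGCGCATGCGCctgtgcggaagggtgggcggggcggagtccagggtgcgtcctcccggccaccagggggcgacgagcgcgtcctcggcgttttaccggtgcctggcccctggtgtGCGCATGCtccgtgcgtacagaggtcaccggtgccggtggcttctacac
Ndufa8: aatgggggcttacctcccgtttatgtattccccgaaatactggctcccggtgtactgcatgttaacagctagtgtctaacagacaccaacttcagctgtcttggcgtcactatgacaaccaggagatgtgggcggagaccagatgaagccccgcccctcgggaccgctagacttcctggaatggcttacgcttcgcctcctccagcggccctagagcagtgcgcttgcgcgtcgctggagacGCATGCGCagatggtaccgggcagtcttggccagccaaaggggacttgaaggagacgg
Ndufa6: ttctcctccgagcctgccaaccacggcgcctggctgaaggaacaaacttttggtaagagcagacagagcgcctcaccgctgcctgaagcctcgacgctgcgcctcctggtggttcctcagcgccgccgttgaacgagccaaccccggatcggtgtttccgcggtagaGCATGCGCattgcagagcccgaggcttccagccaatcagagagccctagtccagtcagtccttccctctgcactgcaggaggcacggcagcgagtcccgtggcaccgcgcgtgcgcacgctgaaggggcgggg
Atp5g3: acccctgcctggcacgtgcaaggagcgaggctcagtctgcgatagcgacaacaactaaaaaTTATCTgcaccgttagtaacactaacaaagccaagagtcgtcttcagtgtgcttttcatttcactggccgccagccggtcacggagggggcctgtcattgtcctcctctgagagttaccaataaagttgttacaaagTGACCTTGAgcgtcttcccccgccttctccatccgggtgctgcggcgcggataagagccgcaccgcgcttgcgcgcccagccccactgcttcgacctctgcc
Cox7a1: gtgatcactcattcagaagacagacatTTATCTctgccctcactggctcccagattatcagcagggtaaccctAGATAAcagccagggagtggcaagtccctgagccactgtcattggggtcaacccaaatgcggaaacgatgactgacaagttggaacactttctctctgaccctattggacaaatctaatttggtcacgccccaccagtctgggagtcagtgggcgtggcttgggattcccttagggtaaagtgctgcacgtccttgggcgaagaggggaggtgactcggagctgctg
Atp5j: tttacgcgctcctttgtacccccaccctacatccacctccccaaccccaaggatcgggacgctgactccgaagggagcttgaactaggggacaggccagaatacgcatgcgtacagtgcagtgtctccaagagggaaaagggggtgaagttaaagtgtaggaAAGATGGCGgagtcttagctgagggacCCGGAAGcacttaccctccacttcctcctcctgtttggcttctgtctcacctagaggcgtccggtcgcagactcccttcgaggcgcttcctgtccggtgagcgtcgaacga
Ndufs3: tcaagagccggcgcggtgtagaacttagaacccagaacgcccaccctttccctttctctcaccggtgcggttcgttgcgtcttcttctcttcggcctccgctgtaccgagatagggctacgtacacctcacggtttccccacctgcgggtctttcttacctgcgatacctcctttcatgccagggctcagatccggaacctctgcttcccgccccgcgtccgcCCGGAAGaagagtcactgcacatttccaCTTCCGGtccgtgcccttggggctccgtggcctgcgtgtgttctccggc

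The letters were searched on both strands without mismatches: GCATGCGC for NRF1, CCGGAAG for the ETS family that includes GABP, AAGATGGCG for YY1, TCAAGGTCA for ERR, AGATAA for GATA factors and TGACGTCA for the cyclic AMP response element (CRE). In the Ndufaf4 promoter 2 of 3 NRF1 matches overlap each other, on opposite strands, and no match overlaps that of another motif in the sequences shown. NRF1 letters stood in 14.3% of the 56 members with a start-site region, in 5.57% of all 9393 genes with such a region and in 3.05% of all 27025 genes with a promoter. ETS letters stood in 26.8%, 18.6% and 9.93% of the same sets, and YY1 letters in 12.5%, 3.08% and 1.64%. CRE letters stood in 5.36%, 3.38% and 2.03% of these sets, and GATA letters in 10.7%, 8.10% and 12.7%. ERR letters were found in 1 member only, Atp5g3. The median GC content of the members' promoters was 58.3%, against 52.7% over all promoters. These matches describe letters in a fixed window and not bound sites.

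Acetylation over the starts of oxidative phosphorylation genes was high and even. The 63 start-site regions had a median value of 822, or 281 per kb of region, against 670 and 210 per kb in all 12381 start-site regions of the table. Per kb, 53 of the 63 lay above the median of all start-site regions, and the median member stood at the 73.3rd percentile of them. Of all members 39.1% lay over a start site, compared with 19.4% of all regions. A GATA4 ChIP peak within 500 bp, from a deposited column, was listed for 9.32% of the 161 members and 8.31% of all regions, and for 7.94% of the start-site members and 11.9% of all start-site regions.

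The complexes lay close to each other on the per kb scale. Median levels over start sites were 333 per kb for the 4 genes of the catalytic F1 sector of complex V, 331 for the 8 genes of its membrane sector Fo and stalk, 311 for the 6 genes of complex III, 296 for the 4 core genes of complex I, 279 for its 21 accessory genes and 274 for the 10 genes of complex IV. The 5 assembly factors of complex I had a median of 238 per kb. The ranges overlapped, from 151 to 424 per kb in accessory complex I genes, 178 to 381 in complex IV and 244 to 545 in Fo. The highest members were Atp5g3, which encodes subunit c of the rotor ring, at 545 per kb, Atp5j, the coupling factor 6 of the stalk, at 475, the complex III core protein gene Uqcrc1 at 426, the accessory complex I gene Ndufb2 at 424 and the complex III core protein gene Uqcrc2 at 403.

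**Figure D1:**
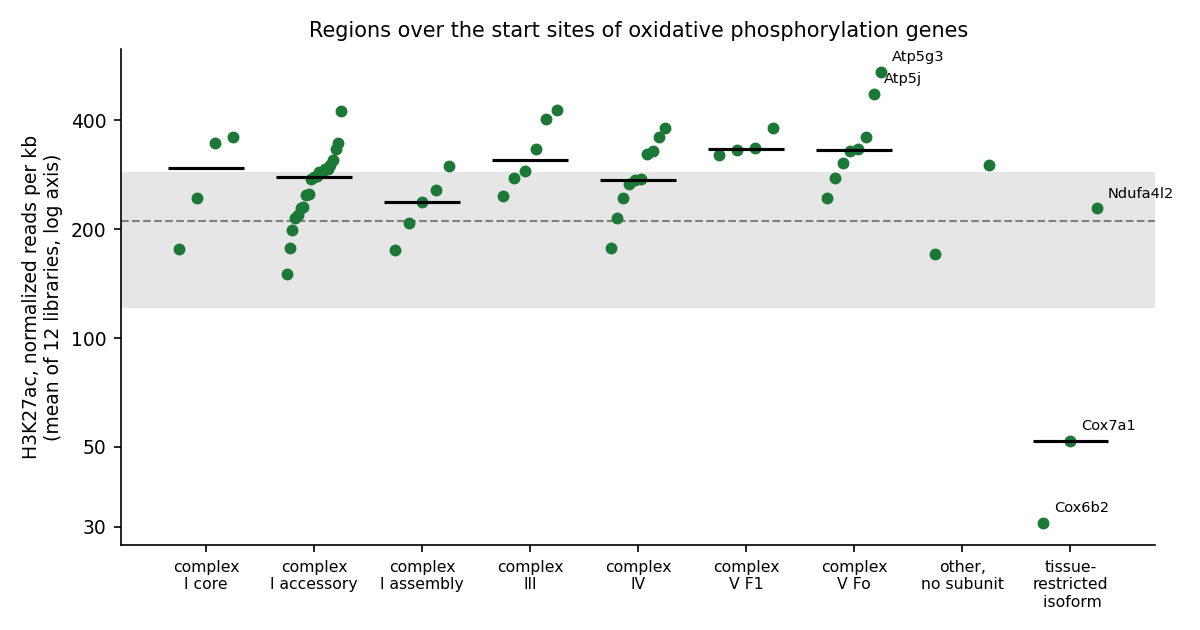
H3K27ac level over the start site of each member (mean of 12 libraries, normalized reads per kb of region, log axis) by complex, with black bars for the class medians; the grey band gives the quartiles (122 to 286) and the dashed line the median (210) of all start-site regions. Nearly all subunit genes sit above the dashed line, while Cox7a1 and Cox6b2 lie far below it.

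Isoforms that are restricted to other tissues stood apart. Cox7a1, the heart and muscle isoform of a complex IV subunit, had 52.0 per kb over its start, against 274 for Cox7a2, the form of the liver. Cox6b2, the testis isoform, had 30.8 per kb, against 275 for the widely used Cox6b1. Cox4i2, the lung isoform, had no region over its start, and its strongest region (chr2:152606134-152621894, mean value 2707) lay 34.1 kb away inside Bcl2l1. An exception was Ndufa4l2, a relative of the complex IV gene Ndufa4 that is known to be induced by hypoxia: its start-site region had 229 per kb, close to 244 per kb for Ndufa4. That region is 11554 bp wide and covers more than the start of the gene.

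Refeeding raised acetylation over the starts of part of the members, by small amounts. In knockout liver 15 of the 63 start-site regions rose and 1 fell, which is 23.8% and 1.59%, against a background of 24.6% higher and 6.05% lower among all start-site regions. In control liver 10 rose and 2 fell, or 15.9% and 3.17%, against 21.6% and 7.15% of all start-site regions. With edgeR the shares were 14.3% of the members and 21.5% of all start-site regions higher in knockout, and 17.5% and 24.3% in control liver; with DESeq2 they were 15.9% and 23.9% in knockout and 27% and 28% in control liver. The share of members stood near or below that of all start-site regions with each tool, and which of these it was changed with the tool. Their median log2 ratio of refed to fasted was 0.12 in knockout and 0.10 in control liver, where all start-site regions had 0.17 and 0.13. The ratio was above 0 in 49 of 63 members in knockout and 52 of 63 in control liver. Since the medians of all start-site regions were also above 0, these counts are not read as particular to the members. A region was called where limma gave p under 0.05 after Benjamini-Hochberg adjustment across the 63686 regions tested.

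Over all 161 members, 25 regions were higher and 17 lower in refed than in fasted knockout liver, with 13.3% and 11.4% of all regions as background (higher 15.5%, lower 10.6% of members). In control liver 24 were higher and 20 lower, against 13.2% and 16.8% of all regions (14.9% and 12.4% of members). Quantile normalization turned the knockout split to 19 higher and 21 lower, that is 47.5% instead of 59.5% higher among the calls. Both genotypes shared 15 rises, which is 60.0% of the knockout and 62.5% of the control calls, and 15 falls, 88.2% and 75.0%, and no member was called in opposite directions. Over all regions the shared rises were 64.4% of the knockout and 65.1% of the control calls, and the shared falls 75.5% and 51.2%. The count of knockout rises moved with single libraries: 15 were left without fasted knockout 3, refed knockout 1 or refed knockout 2, and 16 without refed knockout 3. Over start sites the 15 knockout rises shrank to 4 without refed knockout 1 (6.35%, against 17% of all start-site regions in that fit), 6 without fasted knockout 1, fasted knockout 3 or refed knockout 3, and 7 without refed knockout 2. edgeR called 9 start-site members higher in knockout and 11 in control liver. Start-site rises that held in all 12 fits without 1 library and in edgeR numbered 3 in knockout and 7 in control liver.

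Some markers of hepatocytes and of other liver cells were also called with refeeding, each read at its strongest region. On that basis 22.6% of all genes were higher and 10.6% lower in knockout, and 21.2% and 12.2% in control liver. With lists of 4 to 7 markers, a count of 1 lies near these shares. The 7 hepatocyte markers summed to 34249 to 34633 in refed knockout, against 36601 to 39962 in fasted knockout liver, with 3 lower and 0 higher and no overlap, and to 36332 to 40699 in refed control, against 38109 to 43522 in fasted control liver, with 2 lower and 0 higher and overlapping sums. The 4 cholangiocyte markers with regions summed to 2488 to 2728 in refed knockout, against 1386 to 1996 in fasted knockout liver, and to 2332 to 2800 in refed control, against 1435 to 1690 in fasted control liver, with 3 of 4 called higher in knockout and 4 of 4 in control liver. Of the 5 macrophage markers 2 were higher in knockout and 1 in control liver, with sums of 1001 to 1173 in refed knockout, 833 to 946 in refed control, 622 to 646 in fasted knockout and 577 to 784 in fasted control liver. The 6 endothelial markers summed to 12148 to 13147 in refed knockout, 12569 to 13188 in refed control, 10694 to 11213 in fasted knockout and 11275 to 11829 in fasted control liver, with 1 higher and 1 lower in knockout and 1 higher and 2 lower in control liver. Of the 6 stellate markers 2 were higher in knockout and 1 in control liver. They summed to 1082 to 1241 in refed knockout, 1346 to 1380 in refed control, 952 to 996 in fasted knockout and 1041 to 1261 in fasted control liver. Of the 4 lymphocyte markers with regions 0 were called in either genotype. Their sums overlapped, at 357 to 468 in refed and 389 to 487 in fasted knockout, and 404 to 465 in refed and 370 to 459 in fasted control liver. Over start sites the counts differed. Of 8 hepatocyte regions 1 was higher and 3 lower in each genotype. Of 6 endothelial regions 1 was higher in knockout and 2 in control liver, and 0 lower. Of 2 cholangiocyte regions 0 were higher in knockout and 2 in control liver, and of 5 stellate regions 0 and 1. Apoa1 (17336) and Egfl7 (7035) weigh heavily in the hepatocyte and endothelial sums. The part of these liver cells in the changes at oxidative phosphorylation genes was not tested.

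Ndufaf4 and Ndufa8, both of complex I, were called higher over their starts in both genotypes. Ndufaf4, an assembly factor of complex I, had 1394, 1484 and 1483 in refed knockout livers, against 957, 919 and 992 in fasted knockout livers, and 1364, 1319 and 1309 in refed control livers, against 1091, 1014 and 1007 in fasted control livers (chr4:24822145-24826787, mm9). In neither genotype did refed and fasted mice overlap. The log2 change was 0.60 ± 0.07 in knockout (SE, limma adjusted p = 3.57e-05) and 0.36 ± 0.07 in control liver (adjusted p = 0.00166). Ndufa8, an accessory subunit of complex I, had 926, 925 and 860.2 in refed knockout, against 594, 624 and 675 in fasted knockout livers, and 993, 1036 and 1026 in refed control, against 640.2, 755 and 766 in fasted control livers. Again the refed mice lay above all fasted mice of their genotype, with log2 changes of 0.52 ± 0.09 in knockout (adjusted p = 0.000814) and 0.50 ± 0.09 in control liver (adjusted p = 0.000715). Both genes kept these calls in all 12 fits that left out 1 library. Ndufaf6, another assembly factor, had 1059.6, 1089 and 1183 in refed knockout, against 862, 775 and 858 in fasted knockout livers, a log2 change of 0.42 ± 0.08 (adjusted p = 0.00143). In control liver its change was 0.16 ± 0.08, which was not called (adjusted p = 0.138).

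Among the accessory genes of complex I, 6 of 21 start-site regions rose in knockout and 5 of 21 in control liver, or 28.6% and 23.8%, near the 24.6% and 21.6% of all start-site regions. Ndufb8 had 783, 957 and 947 in refed control, against 648, 571 and 718 in fasted control livers, a log2 change of 0.47 ± 0.11 (adjusted p = 0.0037), with 0.34 ± 0.11 in knockout liver (adjusted p = 0.0297), a call that held in 7 of the 12 fits without 1 library. Ndufa6 had 5929, 5726 and 6115 in refed knockout, against 5196, 5475 and 5132 in fasted knockout livers, and 6761, 7277 and 6407 in refed control, against 5480.5, 5355 and 5325 in fasted control livers. The log2 changes of Ndufa6 were 0.17 ± 0.06 in knockout (adjusted p = 0.0435), a call that edgeR did not share, and 0.34 ± 0.06 in control liver (adjusted p = 0.000431). The Ndufa6 region is 23304 bp wide and takes in more than the start of this gene. Ndufab1, the mitochondrial acyl carrier protein, rose in control liver, where refed mice had 552, 573 and 563 and fasted mice 425, 414 and 459 (log2 0.38 ± 0.10, adjusted p = 0.008), and in knockout liver its change was 0.10 ± 0.10 (adjusted p = 0.477). Ndufb6 was called in both genotypes at 0.25 in knockout and 0.24 in control liver, but the calls held in only 6 and 2 of the 12 fits without 1 library, and edgeR did not call it in knockout liver (adjusted p = 0.0765). Ndufa9 and Ndufc1 passed the threshold in knockout liver, at 0.34 and 0.35, and not in control liver, at 0.28 and 0.24; these calls held in 4 and 9 of the 12 fits. The interaction, which tests such differences between genotypes, called neither, nor any other member, and with its larger standard errors (median 0.23 over the members, against 0.16 for either refeeding comparison) this does not show that the genotypes acted alike.

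The other classes hold fewer genes, with 0 to 3 start-site rises each in either genotype. Of the 4 start-site regions of complex I core genes only that of Ndufv2, a subunit of the NADH-oxidising arm, was called, at 0.24 in knockout liver. Of the 6 genes of complex III, Uqcrc1 was called in knockout (0.29) and Uqcr11 in control liver (0.33). Of the 10 start-site regions of complex IV genes, that of Cox6a1 was called in knockout liver (0.35) and none in control liver. In complex V, 1 of 4 F1 genes was called in each genotype, in knockout liver Atp5e, the epsilon subunit, at 0.35. Of the 8 Fo and stalk genes, Atp5g1, a second gene for subunit c, was called in both genotypes at 0.25 in knockout and 0.35 in control liver, and Atp5o, a stalk subunit, in knockout liver at 0.24. The assembly factor Ndufaf2 rose by 0.50 ± 0.14 in knockout and 0.43 ± 0.14 in control liver. Most of these calls were lost in some of the 12 fits without 1 library. In knockout liver Cox6a1 and Atp5e held in 10 of them, Ndufaf2 in 9, Uqcrc1 in 8, Ndufv2 in 6 and Atp5g1 and Atp5o in 4, and in control liver Uqcr11 held in 10, Ndufaf2 in 9 and Atp5g1 in all 12.

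**Figure D2:**
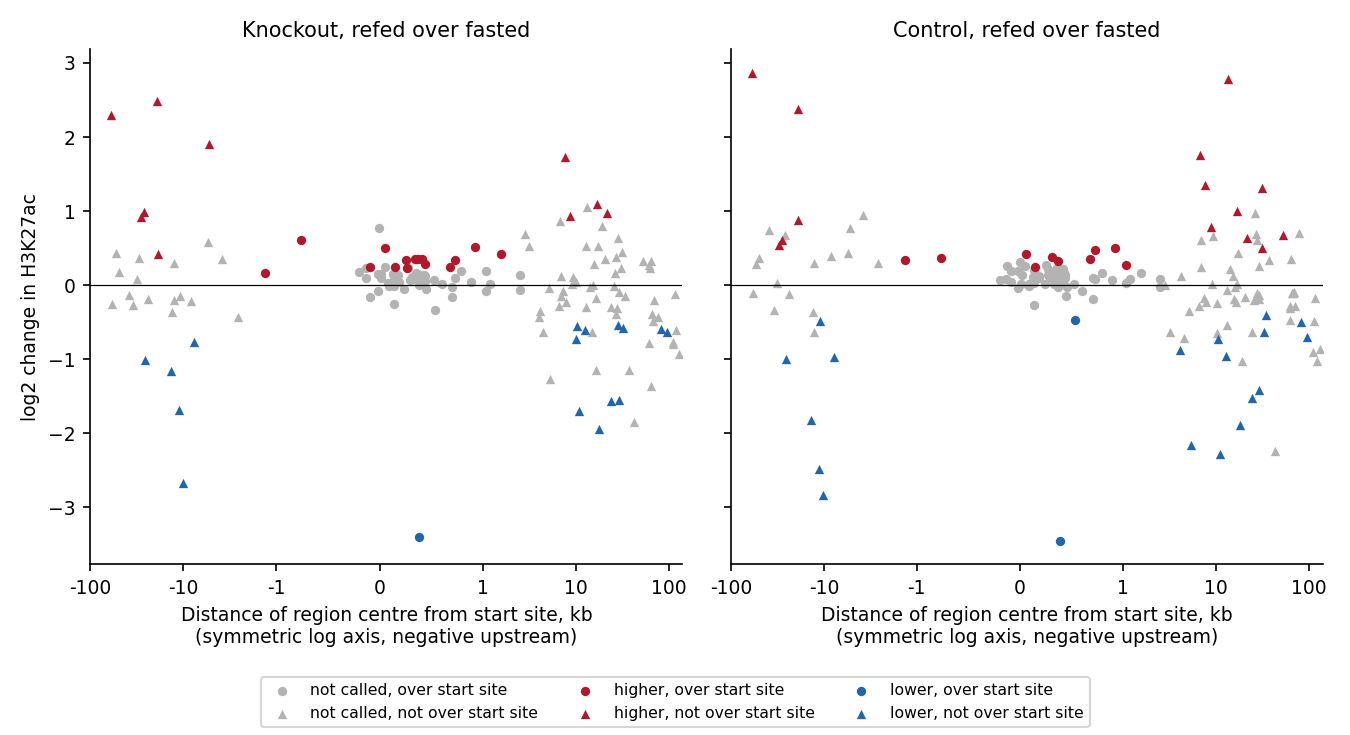
Log2 ratio of refed to fasted H3K27ac for each member region against its distance from the start site (log axis), in knockout (left) and control liver (right); circles lie over a start site, triangles do not, red marks regions called higher, blue lower and grey not called. Most circles gather just above 0, apart from Cox6b2 at −3.40 in knockout and −3.45 in control liver, while triangles spread to both sides, from −2.67 to 2.49 in knockout and from −2.83 to 2.87 in control liver.

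Several of the strongest genes were not called and had narrow intervals. Atp5b, the catalytic beta subunit, had 1564, 1579.8 and 1683 in refed knockout, against 1520.5, 1591 and 1612 in fasted knockout livers, and 1539, 1784 and 1712 in refed control, against 1639.9, 1593 and 1850.1 in fasted control livers. These groups overlapped, and the 95% intervals of the log2 change ran over −0.14 to 0.20 in knockout and −0.18 to 0.16 in control liver. The intervals were −0.12 to 0.26 and −0.11 to 0.27 for the core complex I gene Ndufs3, −0.12 to 0.21 and −0.06 to 0.27 for Uqcrc2, −0.02 to 0.29 and −0.08 to 0.24 for the complex IV gene Cox5a, and −0.23 to 0.08 and −0.20 to 0.11 for Atp5j, in knockout and in control liver. All of these intervals end below the log2 changes seen at Ndufaf4 and Ndufa8 in the same genotype.

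Falls over a start site were called at 2 genes. Cox6b2, the testis isoform, had 12.4, 0 and 30.1 in refed knockout, against 92.5, 98.0 and 51.8 in fasted knockout livers, and 9.19, 8.35 and 0 in refed control, against 43.9, 59.7 and 44.8 in fasted control livers (chr7:4703508-4704726). Both genotypes were lower after refeeding in every mouse, at log2 −3.40 ± 1.03 in knockout (adjusted p = 0.025) and −3.45 ± 1.03 in control liver (adjusted p = 0.019), and at these few reads the size depends on the pseudocount of 1 and the calls were lost in some of the fits without 1 library. Atp5sl, a gene named after an ATP synthase subunit whose product is not one, had 439, 295 and 364 in refed control, against 501, 478 and 519.9 in fasted control livers (log2 −0.47 ± 0.14, adjusted p = 0.0195), and −0.33 in knockout liver (adjusted p = 0.0976).

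Calls over start sites were also counted by the letters in the promoter. Of the 8 members with NRF1 letters (Atp5k, Atp5l, Cox6a1, Ndufa6, Ndufa8, Ndufaf4, Uqcr11 and Uqcrc1), 6 were called higher in at least 1 genotype, 75.0%, and of 48 without them 10, 20.8%; the calls of Cox6a1, Uqcr11 and Uqcrc1 were lost in some fits without 1 library. Over all genes with a start-site region the shares were 40.5% of 523 with NRF1 letters and 31.7% of 8870 without. For the other motifs the shares of members with and without the letters were 26.7% and 29.3% for ETS, 28.6% and 28.6% for YY1, 16.7% and 30.0% for GATA and 0% and 30.2% for CRE, and the 1 member with ERR letters was not called. These are counts of few genes over 6 motifs, and no test was made of them.

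**Figure D3:**
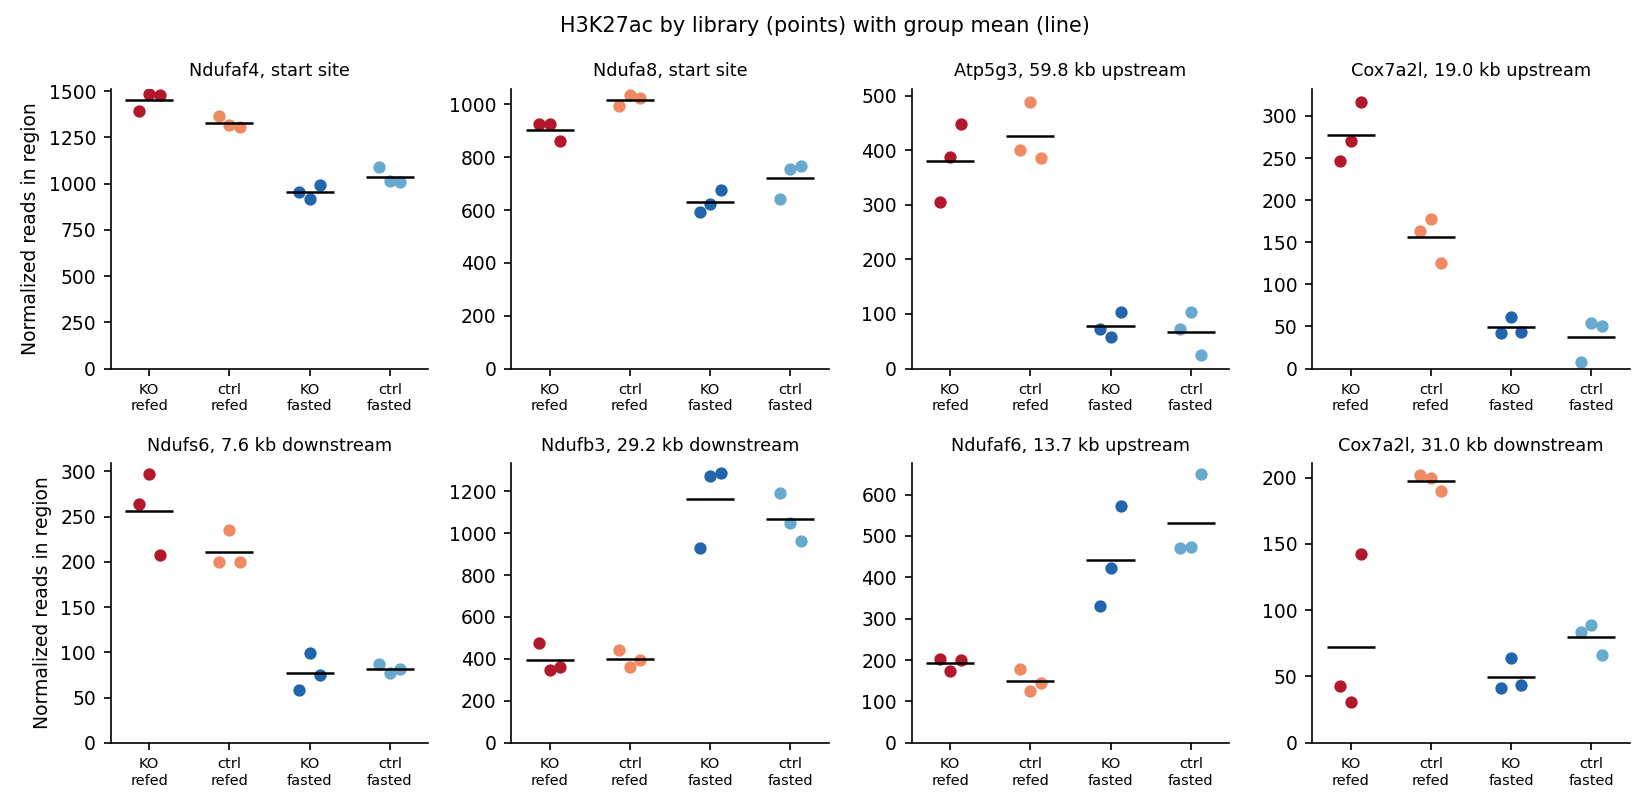
Normalized H3K27ac value of each library (points) and group mean (line) for 8 member regions, in refed knockout, refed control, fasted knockout and fasted control liver, 3 mice each. Ndufaf4 and Ndufa8 over their starts and the regions upstream of Atp5g3 and Cox7a2l and within Ndufs6 are higher in refed than in fasted mice; the regions near Ndufb3 and Ndufaf6 are lower; at the Cox7a2l region 31.0 kb downstream the refed control mice stand apart.

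Away from start sites the changes spread more widely, in weaker regions. The 98 such regions belong to 32 genes by nearest start, with 38 between genes, 43 inside another gene and 17 inside the gene named, so that the assignment to a subunit gene is by distance only. Their median value was 82.7, against 822 over start sites, and the median standard error of their log2 change 0.27, against 0.09. The widest change of any member was nevertheless over a start, that of Cox6b2. In knockout liver 10 rose and 16 fell (10.2% and 16.3%), against 10.6% and 12.7% of all regions away from starts, and in control liver 14 rose and 18 fell (14.3% and 18.4%), against 11.1% and 19.1%. The median log2 change was −0.15 in knockout and −0.12 in control liver. Both genotypes shared 8 rises, 80.0% of the knockout and 57.1% of the control calls, and 14 falls, 87.5% and 77.8%, where all regions away from starts shared 66.2% and 63.0% of rises and 75.8% and 50.2% of falls.

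The largest rise in control liver was at an intergenic region 59.8 kb upstream of Atp5g3, on the side of the gene Lnpk (chr2:73807915-73810469). It had 306, 387 and 449 in refed knockout, against 72.4, 58.3 and 104 in fasted knockout livers, and 400.3, 489 and 386 in refed control, against 73.2, 104 and 24.1 in fasted control livers, with no overlap in either genotype. The log2 change was 2.29 ± 0.38 in knockout (adjusted p = 0.000471) and 2.87 ± 0.38 in control liver (adjusted p = 4.55e-05), whereas the start-site region of Atp5g3 changed by −0.05 and 0.02. Upstream of Cox7a2l, which encodes an assembly factor of respiratory supercomplexes, a region at 19.0 kb (chr17:83931473-83933872) had 246, 269.7 and 317 in refed knockout, against 42.2, 61.6 and 43.3 in fasted knockout livers, and 164, 178 and 125 in refed control, against 8.23, 54.2 and 50.5 in fasted control livers. Its log2 changes were 2.49 ± 0.48 in knockout (adjusted p = 0.00157) and 2.38 ± 0.48 in control liver (adjusted p = 0.00155). All refed mice lay above all fasted mice.

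Within the accessory complex I gene Ndufs6 an intron region 7.6 kb downstream of the start (chr13:73456954-73459693) had 264, 297 and 208 in refed knockout, against 58.3, 99.1 and 75.0 in fasted knockout livers, and 199.7, 235 and 199.8 in refed control, against 86.9, 77.2 and 81.5 in fasted control livers. The refed mice were higher without overlap, at log2 1.73 ± 0.19 in knockout (adjusted p = 1.79e-05) and 1.36 ± 0.19 in control liver (adjusted p = 9.64e-05). The other 5 rises called in both genotypes were a second intergenic region upstream of Atp5g3, at 28.3 kb (0.92 in knockout and 0.60 in control liver), an intergenic region 16.9 kb from the complex III gene Uqcr10 (1.09 in knockout and 1.01 in control liver), an intron region of Ndufa8 (0.93 and 0.78), a region of Bcl2l1 nearest to Cox4i2 (0.98 and 0.64) and a region of Gatad2a nearest to the complex I gene Ndufa13 (0.42 and 0.87). In control liver the call of the Bcl2l1 region held in only 2 of the 12 fits without 1 library and that of the second Atp5g3 region in 6, and edgeR called neither (adjusted p = 0.0539 and 0.0597). Ndufa8 was thus higher both over its start and in its intron. In control liver rises were also called away from the starts of Cox6c (0.68 ± 0.13, adjusted p = 0.000771), Ndufb4 (0.54 ± 0.13, adjusted p = 0.00576) and Cox4i1 (0.50 ± 0.16, adjusted p = 0.0303). The Cox6c and Ndufb4 calls held in all 12 fits without 1 library and the Cox4i1 call in 9. In knockout liver this Cox6c region changed by 0.33 ± 0.13 and was not called (adjusted p = 0.0705).

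The falls gathered at a few loci. Downstream of the accessory complex I gene Ndufb3, towards Flacc1, 3 intergenic regions at 17.9, 24.2 and 29.2 kb fell, with log2 changes of −1.94, −1.57 and −1.55 in knockout and −1.88, −1.52 and −1.42 in control liver. The outermost (chr1:58670950-58673860) had 478, 349 and 363 in refed knockout, against 929, 1273 and 1287 in fasted knockout livers, and 442, 363 and 393 in refed control, against 1193, 1049 and 964 in fasted control livers (adjusted p = 4.37e-06 and 5.42e-06). Refed and fasted mice did not overlap at any of the 3. An intron region of the accessory gene Ndufs4 (chr13:115166500-115168203) had 45.0, 21.6 and 50.6 in refed knockout, against 119.6, 138 and 109 in fasted knockout livers, and 22.6, 22.3 and 15.1 in refed control, against 72.3, 113 and 119 in fasted control livers, with log2 changes of −1.70 ± 0.31 (adjusted p = 0.00111) and −2.28 ± 0.31 (adjusted p = 6.5e-05). Smaller falls in both genotypes lay in other genes nearest to a member: 2 regions of Itsn1 assigned to Atp5o (−0.64 and −0.59 in knockout, −0.70 and −0.50 in control liver), a region of Tecr assigned to Ndufb7 (−0.61 and −0.95), a region of Mtss1 assigned to Ndufb9 (−0.58 and −0.63) and a region in the 3′ UTR of Jam2 assigned to Atp5j (−0.55 and −0.72). In knockout liver the Mtss1, Tecr and 3′ UTR calls held in 8, 9 and 6 of the 12 fits without 1 library. In control liver falls were also called away from the starts of Ndufa7 (−0.87 ± 0.20, adjusted p = 0.0035) and Ndufv1 (−0.48 ± 0.11, adjusted p = 0.00422) and at the strongest Cox4i2 region (−0.41 ± 0.10, adjusted p = 0.00852). These calls held in all 12 fits. In knockout liver Ndufv1 changed by −0.15 and Cox4i2 by −0.14, and neither was called. Another region assigned to Cox6c was lower in knockout liver (−0.72 ± 0.24, adjusted p = 0.0425), a call that held in 5 of the 12 fits. A further region assigned to Atp5j (chr16:84804360-84808961) was also lower in knockout liver. Its call held in all 12 fits, with log2 changes from −0.66 to −0.48, and edgeR gave an adjusted p of 0.0064.

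At Ndufaf6 the start and its surroundings went different ways. Of its 6 regions away from the start 5 fell in both genotypes. The region 13.7 kb upstream (chr4:11015452-11018742) had 204, 173 and 199 in refed knockout, against 329.6, 423 and 571 in fasted knockout livers, and 177, 126 and 146 in refed control, against 470.1, 474 and 649.6 in fasted control livers. The refed mice were lower without overlap, with log2 changes of −1.16 ± 0.19 in knockout (adjusted p = 0.000486) and −1.82 ± 0.19 in control liver (adjusted p = 6.34e-06). The other 4 changed by −2.67, −1.68, −1.01 and −0.77 in knockout and by −2.83, −2.48, −0.99 and −0.98 in control liver, while the start-site region changed by 0.42 and 0.16.

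**Figure D4:**
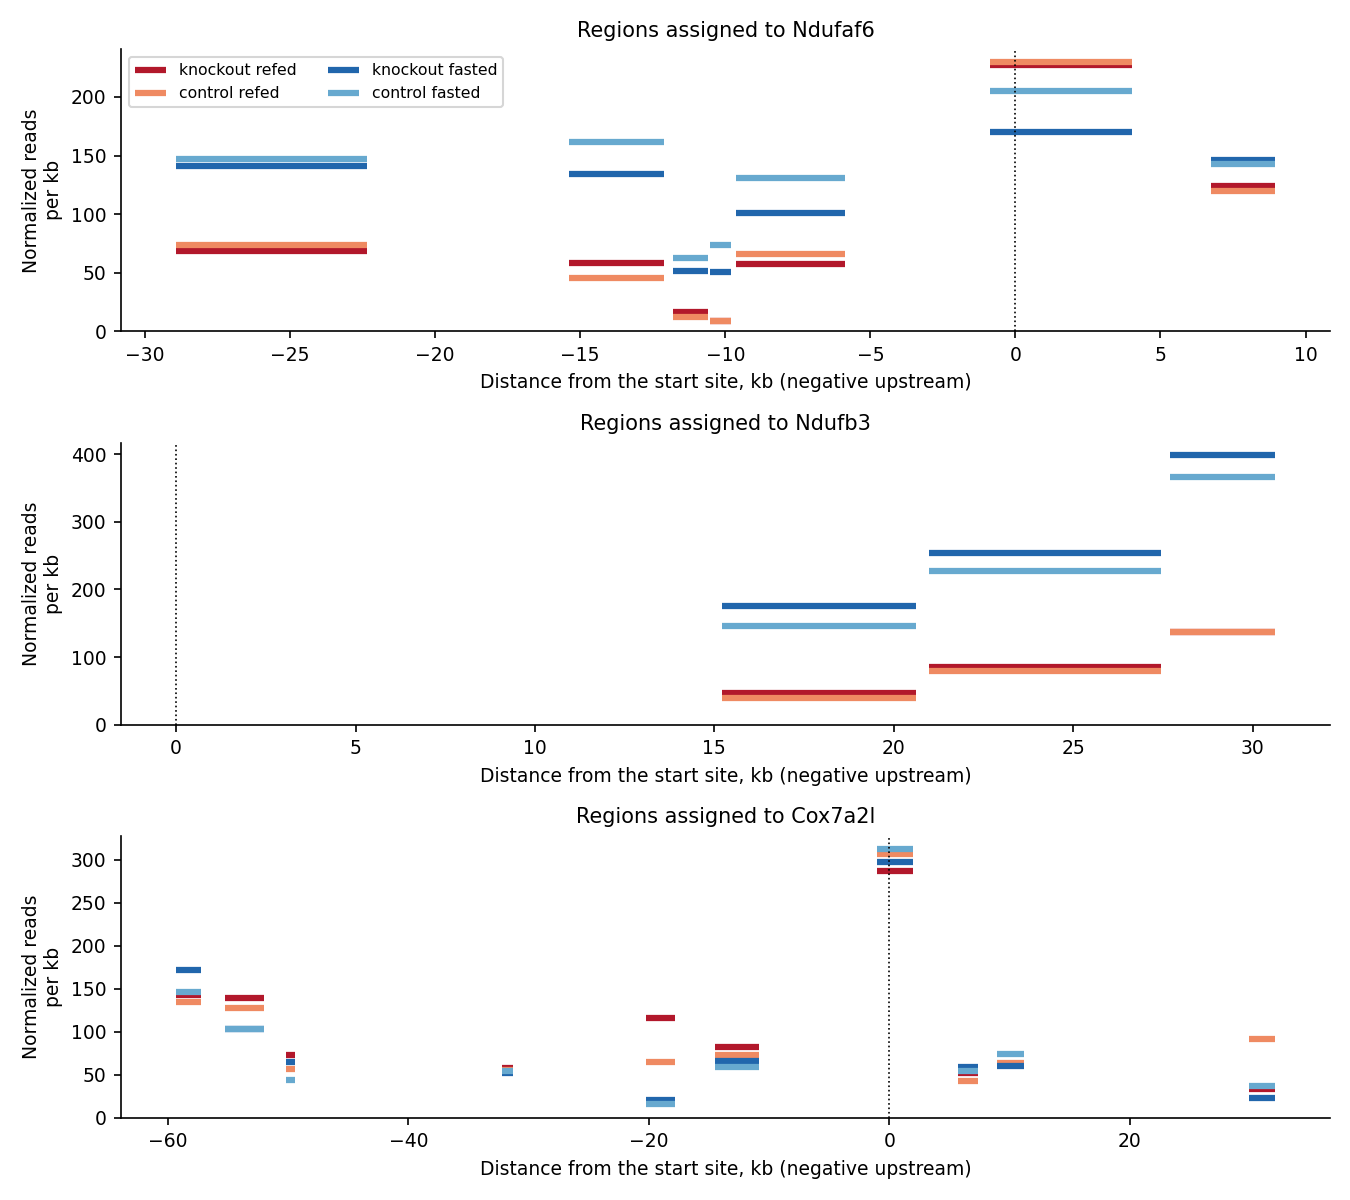
Group mean H3K27ac per kb of each region at Ndufaf6, Ndufb3 and Cox7a2l against the distance of the region from the start site, for refed knockout, refed control, fasted knockout and fasted control liver. At Ndufaf6 the refed groups lie above the fasted ones at the start and below them upstream; at Ndufb3 they lie below downstream; at Cox7a2l they lie above at 19.0 kb upstream.

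Summed over the members, gains and losses nearly cancelled. The 63 start-site regions summed to 61857 ± 1441 in refed knockout and 57213 ± 2083 in fasted knockout liver, a ratio of 1.08, and to 65375 ± 3028 in refed control and 59765 ± 1837 in fasted control liver, a ratio of 1.09 (mean ± SD, n = 3 each). The 98 other regions had ratios of 0.861 in knockout and 0.852 in control liver, and all 161 together 1.01 and 1.02. All libraries were scaled to the same total, and the same sums over all start-site regions and all other regions are not given here. The ratios are therefore not read as particular to the members. No p is given for these sums, since the members were chosen with results known.

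Between knockout and control liver 1 member passed the test. In fasted liver 0 of 161 regions were called, against 0.557% of all regions. The count tools edgeR and DESeq2 also called 0 members there after adjustment. In refed liver 0 members were higher and 1 was lower, against 1.73% and 0.297% of all regions. edgeR also called 1 member lower, another region, and DESeq2 9, among them the one called by limma, and neither called one higher; over all regions edgeR called 0.267% and DESeq2 1.83% lower, and the 9 are 5.59% of the members. Over start sites 0 of 63 were called in either state, where the background was 0.452% in fasted and 0.872% in refed liver. With so few members, a count of 0 or 1 lies near the limma backgrounds, while the DESeq2 share lies above its own.

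The region called lower lay 31.0 kb downstream of Cox7a2l and within 500 bp of a GATA4 ChIP peak (chr17:83881609-83883759). It had 42.7, 30.7 and 142 in refed knockout livers, against 202, 199 and 190.0 in refed control livers, and 41.2, 63.8 and 43.3 in fasted knockout livers, against 83.2, 89.1 and 66.6 in fasted control livers. Knockout mice lay below control mice in both states, and 1 refed knockout mouse lay well above the other 2. The log2 change was −1.76 ± 0.40 in refed (limma adjusted p = 0.0353) and −0.69 ± 0.40 in fasted liver (adjusted p = 0.479). In control liver the region rose with refeeding by 1.31 ± 0.40 (adjusted p = 0.0206), and in knockout liver the change was 0.24 ± 0.40 (adjusted p = 0.71). The knockout call was lost on leaving out any 1 of refed control 1, 2 or 3 or refed knockout 1 or 2, where the adjusted p reached 0.114, and edgeR gave an adjusted p of 0.0734.

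Over start sites the differences between genotypes were small. The median log2 ratio of knockout to control was −0.06 in refed and −0.06 in fasted liver, with −0.01 and −0.05 over all start-site regions. It was below 0 in 42 of 63 members in refed and 49 of 63 in fasted liver. The share below 0 among all start-site regions is not given here, so these counts are not read as particular to the members. Apart from the weak Cox6b2 and Cox7a1, the refed values ran from −0.26 at Atp5l, a membrane subunit of complex V, to 0.19 at Atp5sl. Refed knockout libraries were shallower, and their 7 hepatocyte markers summed to 34249 to 34633, against 36332 to 40699 in refed control liver, with 1 marker called lower. Stellate marker sums were also lower in refed knockout (1082 to 1241 against 1346 to 1380), and macrophage sums were higher (1001 to 1173 against 833 to 946). Sums of the other marker lists overlapped in refed liver. In fasted liver the stellate and endothelial sums were lower in knockout without overlap, and the other lists overlapped. The part of depth and of these cells in the start-site values was not tested. The median ratio of all regions was itself 0.10 in refed liver, and quantile normalization moved it by −0.12.

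**Figure D5:**
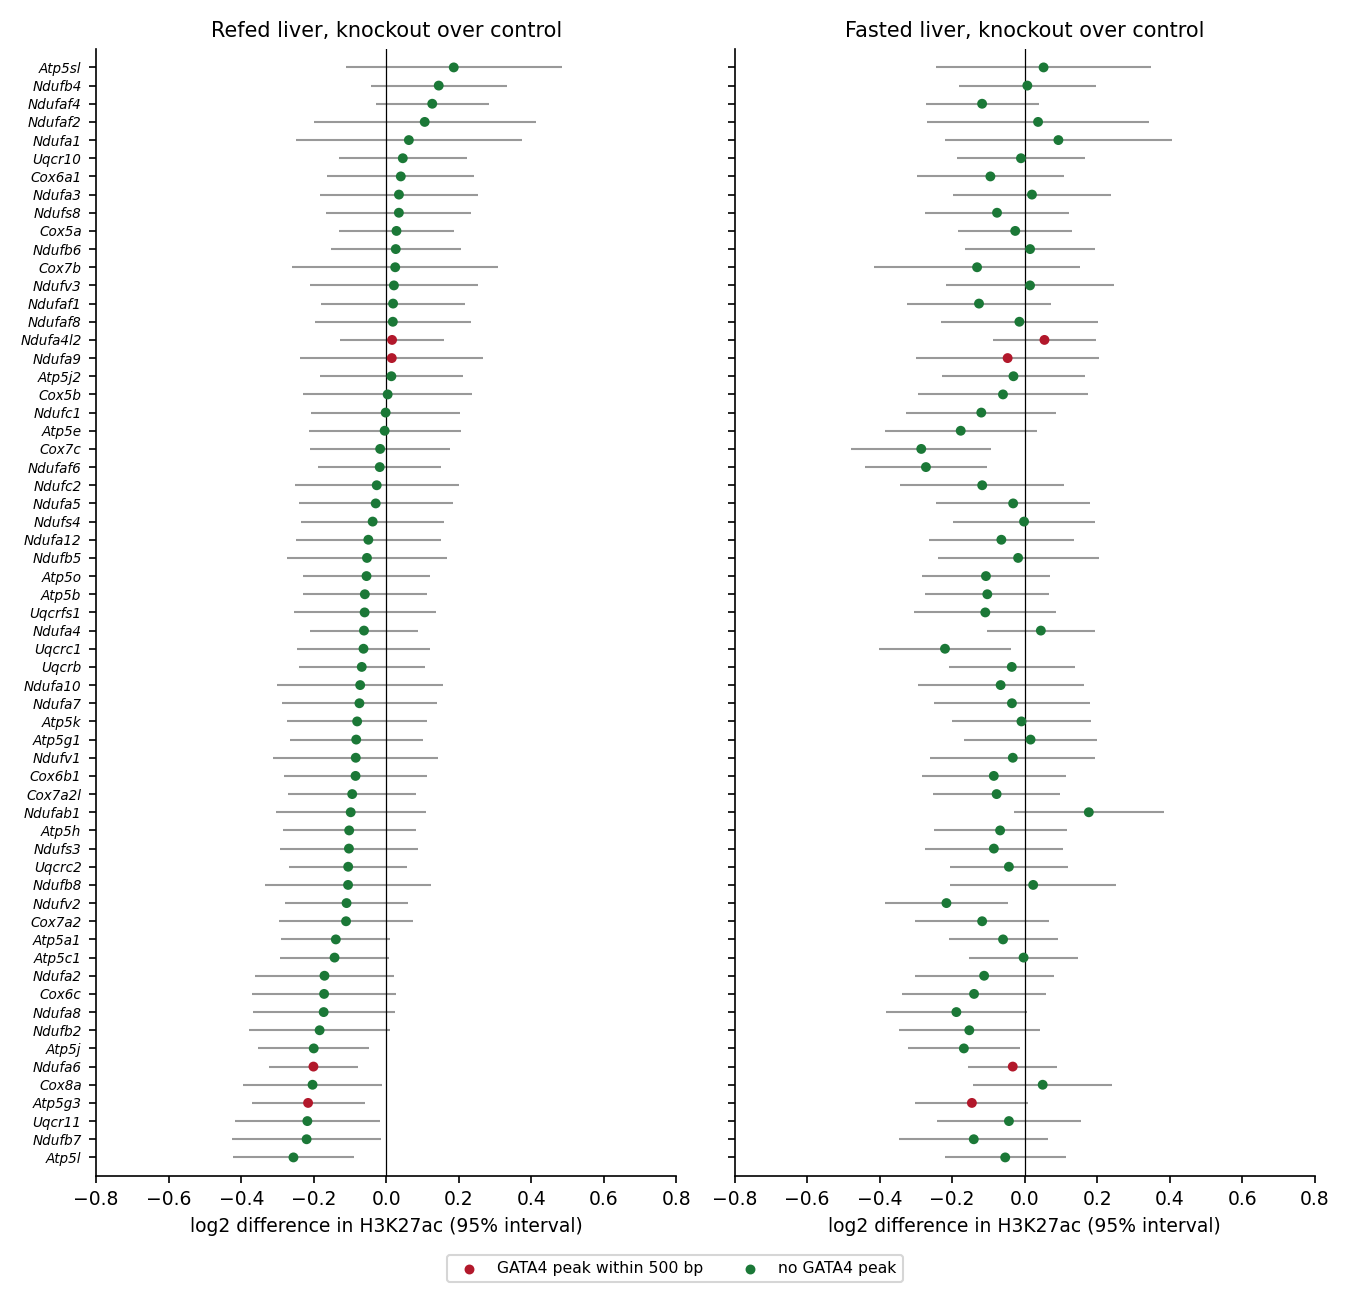
Log2 ratio of knockout to control H3K27ac over the start site of 61 members (points, with 95% intervals), in refed (left) and fasted liver (right), with members within 500 bp of a GATA4 ChIP peak in red; Cox6b2 and Cox7a1 are not drawn. Points lie between −0.26 and 0.19 in refed liver, mostly just below 0.

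Of the 161 members 15 had a GATA4 ChIP peak within 500 bp, 5 of them over a start site. Atp5g3 had 1509.5, 1524 and 1536 in refed knockout, against 1669, 1837 and 1805 in refed control livers, with no overlap, but its log2 change of −0.22 ± 0.07 was not called (adjusted p = 0.135); in fasted liver it was −0.15 ± 0.07. Ndufa6 changed by −0.20 ± 0.06 in refed (adjusted p = 0.0846) and −0.03 in fasted liver. The refed and fasted ratios were 0.02 and −0.05 at Ndufa9, 0.02 and 0.05 at Ndufa4l2 and 0.00 and −0.45 at Cox7a1. Away from starts, a region with a peak in an intron of Jam2, assigned to Atp5j, had 280.1, 279 and 357 in refed knockout, against 481, 386 and 418 in refed control livers (log2 −0.49 ± 0.12, adjusted p = 0.0558), and the Gatad2a region assigned to Ndufa13 had 1064, 1376 and 1176, against 1361, 1831 and 1562 (log2 −0.39 ± 0.11, adjusted p = 0.0805). Neither passed the threshold.

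The authors' deposited table of refed knockout against control lists 7 of the 161 members and 4200 of all 63686 regions, a smaller share of the members than of all regions. Its log2 ratios are −1.57 for the downstream and 0.71 for the upstream region of Cox7a2l, −0.61 for the Jam2 region assigned to Atp5j, −0.38 for Atp5l, −0.51 for the region assigned to Ndufa13, −0.52 for a region assigned to Atp5o and −0.33 for Atp5g3. The fits above gave 0.84 (adjusted p = 0.385) for the upstream Cox7a2l region and −0.26 (adjusted p = 0.102) for Atp5l. The authors' deposited tables for fasted liver, for genotype and for the interaction list 0 of the 161 members. Of all 63686 regions they list 2021, 301 and 972. A column of the authors' deposited table gives the adjusted p of the feeding comparison in control liver for 44 members, 27.3%, and for 32.0% of all regions, and 38 of the 44 were also called here.

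No member was called for a difference between genotypes in its refeeding change. The interaction called 0 of 161 members, against 0.0236% of all regions. With edgeR and DESeq2 0 members were called for it after adjustment. The start-site region of Ndufaf4 had an interaction of 0.24 ± 0.10 (adjusted p = 0.475), that of Ndufaf6 0.25 ± 0.11 (adjusted p = 0.497) and the Gatad2a region assigned to Ndufa13 −0.46 ± 0.16 (adjusted p = 0.354), each the log2 refeeding change in knockout minus that in control liver.

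Related genes that the rule does not take were read with 1 region per gene, the one with the highest mean. On that basis 16 of the 70 members rose and 5 fell in knockout and 14 rose and 8 fell in control liver, that is 22.9% and 7.14% in knockout and 20.0% and 11.4% in control liver, against 22.6% and 10.6% of all genes in knockout and 21.2% and 12.2% in control liver. Of 3 measured genes of complex II, which feeds electrons from succinate, 2 rose in both genotypes, Sdha by log2 0.36 in knockout and 0.33 in control liver and Sdhd by 0.24 in both. Of 22 genes of cytochrome c and of complex III and IV assembly, 6 rose and 3 fell in knockout and 5 rose and 3 fell in control liver; Lrpprc, which stabilises mitochondrial mRNAs, rose by 0.34 in both and the Cox1 translation factor Taco1 changed by −1.01 in knockout and −0.87 in control liver, at a region away from its start. Of 11 further genes of complex I and V, 3 rose in each genotype, among them the ATP synthase assembly factor Atpaf1 at 0.36 in knockout and 0.40 in control liver. No gene of these lists was called between knockout and control.

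Of 13 genes of the tricarboxylic acid cycle, 2 rose and 1 fell in knockout and 3 rose and 2 fell in control liver. Citrate synthase (Cs) rose by log2 0.96 in knockout and 1.28 in control liver, and Suclg1, a subunit of succinyl-CoA ligase, changed by −0.49 and −0.70. Of 9 carrier, porin and uncoupling genes, 2 rose and 1 fell in each genotype: the citrate carrier Slc25a1 at 0.67 in knockout and 0.79 in control liver, the porin Vdac1 at 0.20 and 0.25, and, at a region 8.8 kb upstream of its start, the uncoupling protein gene Ucp3 at −0.37 and −0.74. Of 16 regulators of mitochondrial biogenesis, 3 rose and 3 fell in knockout and 3 rose and 2 fell in control liver. The coactivator gene Pprc1 rose by 0.56 in knockout and 0.60 in control liver, and a region 151.6 kb downstream of the start of the nuclear receptor gene Esrrg, assigned to it as the nearest gene, changed by −1.37 and −1.32. The rise at Cs was larger in both genotypes than that of any start-site region of the members.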

How the data were processed

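H3K27ac ChIP-seq of frozen mouse liver gave 12 libraries, and the 12 input libraries were not analysed here. The submitters' processing notes name the aligner Bowtie2, the peak caller MACS2, DiffBind with edgeR, and HOMER, next to Trim Galore, SAMtools, FastQC, deepTools and bedtools, on mm9; the sources used here give no versions and do not say whether input was subtracted. The deposited signal value of a region is a normalized read number, and dividing by the step of each column gave whole reads for all values within 0.01 of a read. Region genes and annotations are those of HOMER, per the file headers. The authors' log2 ratios and adjusted p-values from their deposited comparison tables were used only where named.

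The limma package (3.58.1, under R 4.3.3) was applied to log2(value + 1) of all 63686 regions, with all 12 libraries in 1 fit of 4 groups, a trend and empirical Bayes moderation, and no filter. A log2 change is a difference of group means of log2 values, so in weak regions it depends on the pseudocount and on single mice with few reads and can differ either way from a count fit: Cox6b2 had −3.40 in knockout liver here and −2.51 with edgeR. Calls were made at p under 0.05 after Benjamini-Hochberg adjustment, and the text gives the limma value unless another tool is named. The script was tested on simulated data with known changes. The labels name no batch, but in the titles the 3 mice of a group share 1 number that no other group has, so whatever that number marks cannot be told apart from the group. Each library is 1 mouse, so the tests set differences between groups against the spread between mice within groups, pooled over the 4 groups. That spread does not include whatever the shared title number marks. Alternatives were edgeR 4.0.16 and DESeq2 1.42.0 on recovered whole reads, quantile and median-ratio scaling, pseudocounts of 5 and 0.5, leaving out the lowest 20% of regions, fits of the 2 groups compared only, and leaving out each library. Tables and plots used Python 3.11.15, pandas 2.3.3 and matplotlib 3.10.9.

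The members and lists were chosen with earlier results of these data known. Named genes were the strongest region of each class, up to 10 rises and 10 falls per comparison among called regions at or above the median mean value, the tissue-restricted isoforms and up to 3 called genes per related list; other members named were chosen after their values were seen. Promoters come from RefSeq (GRCm38.p6).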

Additional observations from a re-analysis of the deposited data

How the results depend on the processing

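Refeeding counts were within 1.5 times of those reported under every scaling, pseudocount, filter and tool tried over all members; leaving out 1 library gave 15 to 28 rises and 13 to 19 falls in knockout liver and 17 to 23 rises and 18 to 22 falls in control liver. Over start sites the same fits gave 4 to 15 rises in knockout and 7 to 12 in control liver; knockout rises there numbered 9 with edgeR, 9 with median-ratio scaling and 8 with quantile normalization, and control rises 17 with DESeq2. Between knockout and control in refed liver, falls numbered 9 with DESeq2, 2 with median-ratio scaling, 0 with quantile normalization and 0 with only the 2 groups in the fit, which called 1 rise; leaving out 1 library gave 0 to 2 falls and 0 to 1 rise, and in fasted liver 0 to 1 rise and 0 falls. The interaction stayed at 0 in all fits. With 1 region per gene, falls after refeeding numbered 5 in knockout and 8 in control liver, but 2 and 3 with the region nearest the start and 1 and 2 with start-site regions only.

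The summed value of all members turned direction on the mean log2 scale, where weak regions count as much as strong ones. Knockout minus control was −2131 in refed and −1207 in fasted liver as a sum and 0.03535 and 0.04671 as a mean log2, and refed minus fasted was 867.2 in knockout and 1791 in control liver as a sum and −0.0452 and −0.03384 as a mean log2. The letters N, R and L recur in the sample titles of fasted knockout, refed control and fasted control mice, but no label says that they pair mice, and mice with the same letter deviated together by correlations of only −0.06 to 0.06. A replicate block of these letters over these 3 groups, chosen after seeing the data, gave 20 rises and 21 falls for refeeding in control liver and 0 calls for knockout in fasted liver; of these letters the refed knockout mice carry only L. Causes of these shifts were not tested. Regions with a few reads, such as Cox6b2 and the weaker Ndufaf6 regions, limit what can be said of the size of their changes.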
